A study of Mus musculus with 16 samples.

Results

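The 10 genes described here encode receptors through which hepatocytes respond to growth factors and hormones: Egfr, Erbb3, Met, Fgfr4, Klb, Lifr, Il6ra, Lepr, Gcgr and Thrb. Open chromatin around them was read from DNase hypersensitive sites (DHS), stretches of DNA that the nuclease DNase I cuts more often than their surroundings. A DHS belonged to a receptor when it overlapped the gene or the 20 kb on either side of it, and DHS of different lists that shared at least 1 bp were joined into a region. This gave 125 receptor regions of 51482 regions in the genome. The livers came from male and female mice of the inbred strains C57BL/6J (B6), the strain of the mouse reference genome, and CAST/EiJ (CAST), a wild-derived inbred strain of the subspecies castaneus. All mice were labelled as 8 weeks old, no treatment or engineered allele was named for any group, and nuclei purified from their livers were digested with 32 U of DNase I. The 16 libraries fell into 4 groups of 4 libraries, male B6, female B6, male CAST and female CAST. The deposited DHS had been called on the pooled libraries of each group, so each group had a single list, no spread between mice could be computed and no test between groups was possible.

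Egfr, Erbb3 and Met are receptor tyrosine kinases. Egfr binds epidermal growth factor and its relatives, Erbb3 is a partner with little kinase activity of its own that binds neuregulins, and Met binds hepatocyte growth factor and is known for its part in liver regeneration. Fgfr4 with its co-receptor Klb (beta-klotho) receives the intestinal hormone FGF15, which represses bile acid synthesis. Lifr and Il6ra belong to cytokine receptor complexes that signal through JAK kinases and STAT3 and drive the acute phase response, and Lepr binds leptin and signals in the same manner. Gcgr, the glucagon receptor, acts through cAMP to raise hepatic glucose output, and Thrb is the main nuclear receptor for thyroid hormone in liver, a transcription factor rather than a membrane protein.

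The values are fold enrichments, the deposited ratio of the read pileup at a DHS summit to the local background, and −log10 q-values against that background. The lists held 24888 to 39562 DHS. The background pileup recovered from these values, which follows depth, was 15.4 fragments in B6 males, 13.9 in B6 females, 14.3 in CAST males and 7.94 in CAST females, so the female CAST list was the shallowest. The intervals given with fold enrichments are exact Poisson 95% intervals on the recovered summit pileup, and they cover counting error only. The labelled tissue was checked with marker promoters: 6 of 8 hepatocyte genes had a region over an annotated transcription start site (TSS) in all 4 lists, against 0 of 4 Kupffer cell genes, 1 of 4 sinusoidal endothelial genes, 1 of 4 stellate or bile duct genes and 0 of 6 genes not expected in liver. The exceptions among the hepatocyte genes were Apoa1, with a region in 2 lists, and Serpina1a, with none. All 4 endothelial promoters had a region in at least 1 list, and the part of other cell types in the receptor regions was not tested. In whole liver, a site open in fewer cells and a site less open in each cell cannot be told apart.

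The promoters of 8 of the 10 receptors were open in both sexes of both strains. Of the protein-coding genes of the annotation, 40.6% had a region over a TSS in all 4 lists. Fgfr4 had the strongest promoter region, with a fold enrichment of 8.25 (7.25 to 9.36) in B6 males, 8.21 (7.04 to 9.51) in B6 females, 8.13 (7.28 to 9.04) in CAST males and 6.90 (5.73 to 8.25) in CAST females. Its 4 intervals overlapped one another. The next was Met, with 6.64 in B6 males, 4.34 in B6 females, 6.22 in CAST males and 5.26 in CAST females. By the mean over lists the order was Fgfr4 (7.87), Met (5.62), Il6ra (5.09), Thrb (4.94), Klb (4.18), Lifr (4.13), Erbb3 (4.09) and Egfr (3.65). From Met down to Egfr, neighbours in this order had overlapping counting intervals in all 4 lists, and Fgfr4 and Met overlapped in 2 of the 4. Levels between regions also depend on the local background each was divided by.

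The promoters of Gcgr and Lepr stood apart from the other 8. The region over the Gcgr TSS, chr11:120391202-120392267, had a fold enrichment of 2.42 in B6 males, 2.33 in B6 females and 3.21 in CAST males, and female CAST had no peak there. The same region covers a TSS of Gm11789, a gene that overlaps Gcgr, so its signal cannot be given to either gene. Scaled to the depth and enrichment of the female CAST list, the male CAST peak would have had a −log10 p of 8.47 and the female B6 peak 7.84, and the weakest peak of the female CAST list had 3.55. Female CAST did have peaks on both sides of the Gcgr TSS, with fold enrichments of 2.46 at -1.38 kb and 3.04 at 1.01 kb. The main Lepr TSS lay in no region of any list. A female CAST peak of 350 bp with a fold enrichment of 2.92 (1.95 to 4.23) started 4 bp downstream of the main TSS and 1 bp downstream of that of a minor transcript, and no other list had a peak there.

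**Figure D1:**
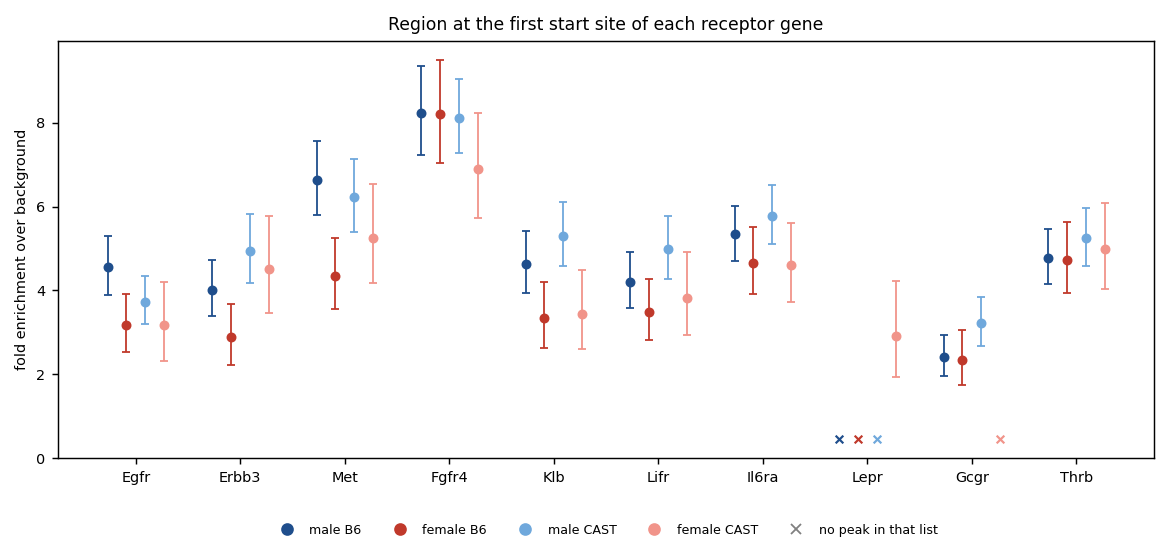
Fold enrichment over background (y axis, linear) of the region at the first start site of each receptor gene, 1 point per pooled list, with exact Poisson 95% intervals for counting error and crosses where a list had no peak. Fgfr4 lies highest in all 4 lists, Gcgr has no female CAST point, and Lepr has a female CAST point only, from a peak that starts just beyond its start site.

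Start sites differed within a gene. The 10 genes have 35 annotated TSS positions, of which 15 lay in a region found in all 4 lists, 3 in a region of 3 lists, 1 in a region of 2 lists, 1 in a region of 1 list and 15 in none. Of the TSS positions of all protein-coding genes 34.5% lay in a region of all 4 lists and 58.4% in none, beside 42.9% and 42.9% of the receptor positions. An internal Met TSS lay in a region with its summit at 83.1 kb, found in both male lists with fold enrichments of 2.00 in B6 and 2.93 in CAST. The internal Lifr TSS lay in a male B6 peak with a fold enrichment of 2.13. No peak covered the 2 internal start sites of each of Thrb, Egfr and Gcgr, the 3 of each of Fgfr4 and Lepr, or 1 of those of Met. Whether a start site without a peak was open in few cells or in none was not tested.

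The receptor windows held between 6 regions (Fgfr4 and Lepr) and 29 regions (Thrb), with 18 at Egfr, 17 at Met, 12 at Lifr, 10 at Klb and 9 each at Erbb3, Il6ra and Gcgr. Per 100 kb of window the density ran from 4.35 regions at Lepr to 18.6 at Gcgr, with a median of 10.9, and the median over 22367 protein-coding genes was 3.24. Introns held 70 of the 125 regions, the 20 kb flanks 15 upstream and 17 downstream, and the rest touched an exon. For 96 regions the nearest TSS was the receptor's own. The other 29 lay nearest to another gene. In the windows of Erbb3, Klb and Gcgr such a region was the strongest of its window, by the mean over the lists that held it. These were the Pa2g4 promoter 23.5 kb from the Erbb3 TSS (mean fold enrichment 9.40), the shared Lias and Rpl9 promoter 43.1 kb from the Klb TSS (6.56), and a male region in the Gcgr window nearest to Gm11789 that is described below (4.12, a mean over the male lists alone). In Egfr, 10 of the 18 regions were nearest to another gene or to a transcript inside its introns (Gm17664 or E230015J15Rik), although 15 lay within Egfr itself.

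**Figure D2:**
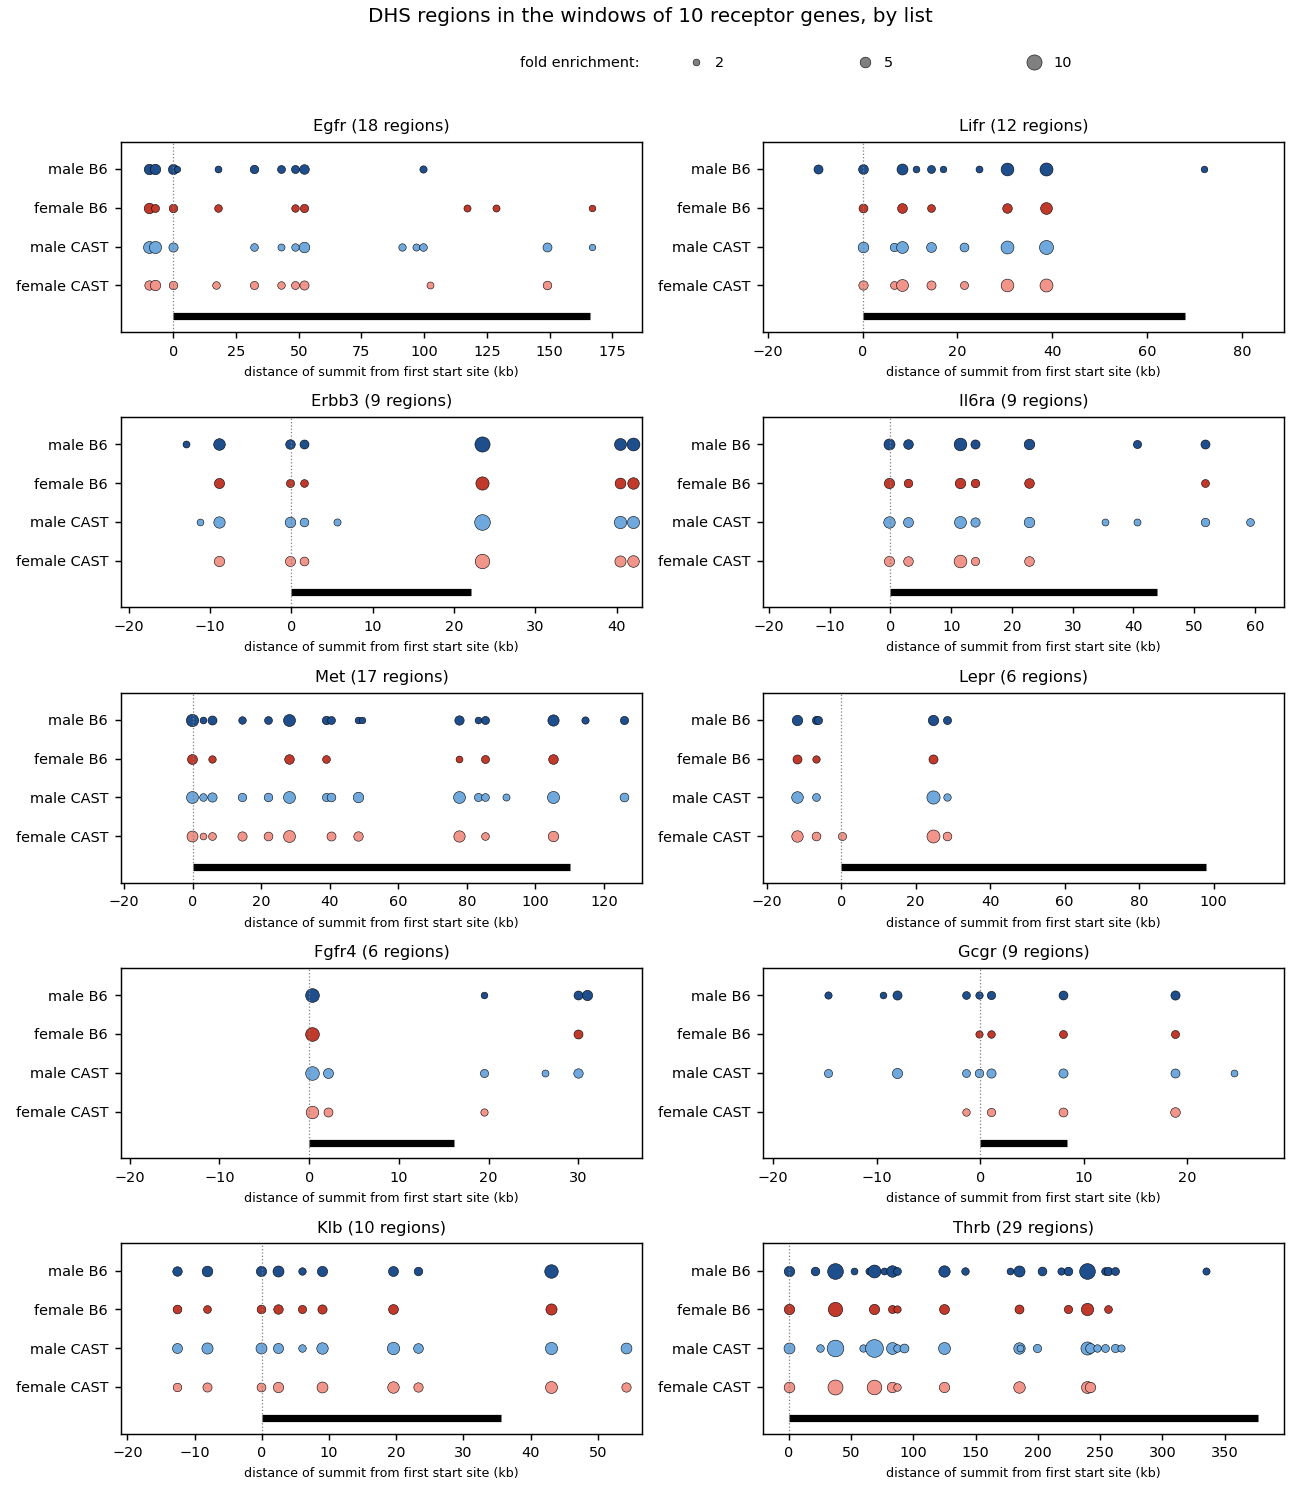
Maps of the 10 receptor windows, 1 panel per gene and 1 row per pooled list. The x axis is the distance (kb) of each region's summit from the first start site in the direction of transcription, the area of a point is proportional to its fold enrichment, and the black bar is the gene. Most large points recur in all 4 rows, and most points seen in 1 row are small.

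By its mean over the 4 lists (10.5) the strongest receptor region was an intronic site of Thrb, 37.3 kb into the gene. Its fold enrichment was 10.8 (9.80 to 11.9) in B6 males, 8.99 (7.86 to 10.2) in B6 females, 12.2 (11.03 to 13.4) in CAST males and 9.86 (8.28 to 11.6) in CAST females. It was high in all 4 lists, at the 95.4 percentile of the mean fold enrichment of all regions found in 4 lists, and its summits lay within 29 bp of one another.

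The strongest site of each receptor is the one with the highest mean over the lists that held it. Among the growth factor receptors, that of Egfr lay at -9.69 kb from the TSS (chr11:16642044-16642952), with fold enrichments of 4.80 in B6 males, 4.84 in B6 females, 6.23 in CAST males and 3.88 in CAST females. As deposited the male to female ratio was 0.993 in B6 and 1.61 in CAST. Divided by the median ratio of all shared regions it was 0.740 (counting interval 0.587 to 0.944) in B6 and 1.34 (1.03 to 1.82) in CAST, below 1 in the first and above 1 in the second, and the difference between the strains was not tested. A second upstream site, at -7.26 kb from the Egfr TSS, had 4.81, 2.82, 6.48 and 4.83 in the same order, with female B6 the lowest. It stood above the first site in 3 of the 4 lists, by little in B6 males, and below it in the mean (4.73 against 4.94). For Erbb3 the strongest own site lay at -8.91 kb, with 5.93, 4.5, 5.65 and 4.73, and the groups lay within 1.32 times of one another. The strongest Met site covered a coding exon 28.0 kb into the gene (chr6:17441281-17442468), with 6.29 in B6 males, 4.03 in B6 females, 6.24 in CAST males and 6.26 in CAST females, female B6 being the lowest as it was over all shared regions. Divided by the median ratio of all shared regions, the male to female ratio in B6 was 1.16 (0.907 to 1.52). Its mean of 5.71 was close to that of the Met promoter (5.62), which was higher in both B6 lists. For Klb an intronic site at 19.5 kb had 4.38 in B6 males, 4.27 in B6 females, 6.72 in CAST males and 5.79 in CAST females, both CAST lists lying above both B6 lists. Divided by the median ratio, the B6 to CAST ratio was 0.690 (0.532 to 0.881) in males and 0.875 (0.625 to 1.23) in females.

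The cytokine receptors had their strongest sites inside the gene. The site of Lifr at chr15:7116764-7118588, a region of 1825 bp over a coding exon 38.6 kb from the TSS, had fold enrichments of 7.43 in B6 males, 6.07 in B6 females, 8.61 in CAST males and 7.37 in CAST females. It was stronger than the Lifr promoter (4.21, 3.49, 4.98 and 3.83) in every list. A further Lifr site at 30.5 kb had 7.14 in B6 males, 4.03 in B6 females, 7.33 in CAST males and 7.10 in CAST females, and the male to female ratio in B6, divided by the median ratio, was 1.32 (1.05 to 1.71). The strongest site of Il6ra lay in an intron 11.4 kb from the TSS (chr3:89705241-89706086), with 7.02, 4.82, 6.32 and 7.11 in the same order, above the Il6ra promoter in each list. Lepr, whose main TSS lay just outside a female CAST peak and in no region, had its strongest site in an intron at 24.6 kb, described with the strain comparison. The strongest own site of Gcgr, at the 3′ end of the gene, reached 3.51 in B6 males, 2.77 in B6 females, 3.68 in CAST males and 3.49 in CAST females, the lowest of these sites among the 10 genes.

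Sharing among the 4 lists followed the genome. Of the 125 receptor regions 49 (39.2%, Wilson 95% interval 31.1 to 48.0) were found in all 4 lists, and 35.6% of all regions were. The Wilson intervals, here and below, treat regions as independent. The regions came from only 10 windows, 29 of them from Thrb, so the intervals leave out the spread between genes. A further 16 were found in 3 lists, 19 in 2 lists and 41 in 1 list. The share found in all 4 lists was 66.7% for the 27 regions within 2.5 kb of a TSS and 31.6% for the 98 regions farther away, beside 59.1% and 24.0% for all regions of the genome. By gene it ran from 16.7% at Fgfr4 (1 of 6) and 27.6% at Thrb (8 of 29) to 70% at Klb (7 of 10). The 49 shared regions had a median fold enrichment of 4.80 in B6 males, 3.62 in B6 females, 5.76 in CAST males and 4.73 in CAST females, with 5.35, 3.88, 5.80 and 4.66 for all shared regions in the same order. Their male peak was the wider in 44 of 49 regions in B6 and 45 of 49 in CAST, beside 82.2% and 88.2% over all shared regions.

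**Figure D3:**
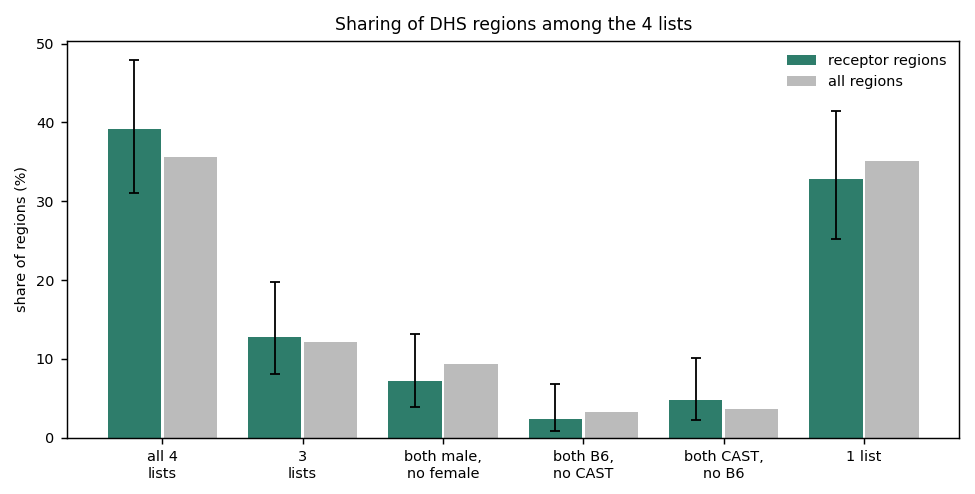
Share of regions (%, y axis from 0) by the lists that held them, for the 125 receptor regions (green, with Wilson 95% intervals) and all 51482 regions (grey). The receptor share in all 4 lists is 39.2% beside 35.6%, and each grey bar lies inside the interval of the green bar beside it. The intervals treat regions of the same gene window as independent.

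The sex comparison asked which receptor sites had a peak in 1 sex only. In B6, 40 of the 100 receptor regions found in either list were in the male list only, and the share over all regions was 36.4%. In the female list only there were 3 of 100, with 5.13% over all regions. In CAST, 31 of 100 were male only (40.3% over all regions) and 3 of 100 were female only (3.9% over all regions). The male-only peaks had a median fold enrichment of 2.32 in B6 and 2.51 in CAST, beside 3.49 and 3.74 for all peaks of those lists. At the depth and enrichment of the female list, 22 of the 40 male-only regions in B6 and 18 of the 31 in CAST would have fallen below that list's weakest peak, so for these a sex difference was not detectable at this depth. The other 45% and 41.9% stood above it, beside 42.9% and 44.7% of the male-only regions of the whole genome. With the lists cut to equal size the counts became 11 male only and 4 female only in B6, and 4 male only and 10 female only in CAST. These were 15.9% and 5.8% of the 69 receptor regions then found in B6, beside 14.3% and 13.1% of all regions, and 5.48% and 13.7% of the 73 found in CAST, beside 14.9% and 13.6%. With an overlap of 50% required for joining, 14 regions were female only in B6 (12.3% of 114, beside 10.5% of all regions) and 17 in CAST (14.9% of 114, beside 9.35%). Thrb (11 regions) and Met (9) held the most of the 40 male-only regions in B6, and Thrb (10) the most of the 31 in CAST.

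Sex differences held by both strains were few. Limited to males in both strains were 9 receptor regions (7.2%), with 9.38% over all regions, and none of the 125 was limited to females in both strains, which allows a share of up to 2.4% when a count of 0 is taken to allow 3 regions (0.0622% over all regions; Wilson upper bound for the receptors 2.98%). Of the 9, Thrb held 3, Met and Gcgr 2 each, and Egfr and Il6ra 1 each. The strongest, at -8.05 kb from the Gcgr TSS and nearest to Gm11789 (chr11:120383802-120384442), was singled out after its values were seen. It had a fold enrichment of 3.65 (2.97 to 4.43) in B6 males and 4.60 (3.77 to 5.55) in CAST males and no female peak. Its −log10 p scaled to the female lists was 9.30 in B6 and 11.7 in CAST, and the weakest female peaks had 3.56 and 3.55. In 4 of the 9 (44.4%) the scaled value stood above the weakest peak of both female lists. Of the 4830 regions of the genome limited to both male lists, 34.9% did so. Besides the Gcgr region, these were the Met region at 125.7 kb, beyond the gene's 3′ end (3.0 in B6 males and 3.41 in CAST males), and the Thrb intronic regions at 254.2 kb (2.58 and 2.74) and 262.3 kb (2.80 and 2.97). The last was close to the limit, at a scaled −log10 p of 3.62 in B6 and 3.71 in CAST. Scaled in the same way, the male intronic regions of Il6ra at 40.6 kb (2.92 in B6 males and 2.16 in CAST males), Egfr at 99.4 kb (2.32 and 2.57) and Thrb at 64.2 kb (2.24 and 1.96), the region at the internal Met start site and a Gcgr region at -14.7 kb (2.32 and 2.93) fell below the weakest female peak in at least 1 strain. With lists of equal size 1 of the 9 remained.

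Among the 49 shared regions none passed 1.5 times between males and females in the same direction in both strains. Each ratio was divided by the median ratio of all 18309 shared regions, 1.34 in B6 and 1.2 in CAST, the male lists having the higher fold enrichments over these regions. Over all shared regions 0.35% were higher in males and 0.115% higher in females by this rule. The relative ratios of the receptor regions ran from 0.740 to 1.51 in B6 and from 0.670 to 1.34 in CAST, with medians of 0.975 and 0.972. The highest in B6 was a Thrb intronic site at 82.4 kb, where the fold enrichment was 5.79 in B6 males and 2.85 in B6 females, with 6.17 and 4.85 in male and female CAST. Its relative ratio was 1.51 (counting interval 1.12 to 2.13) in B6 and 1.06 (0.781 to 1.49) in CAST. The intervals of the strains overlapped, and the difference between the strains was not tested.

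The strain comparison gave 6 receptor regions that both lists of CAST held and neither of B6 (4.8%), with 3.62% over all regions, and 3 that both lists of B6 held and neither of CAST (2.4%), with 3.32% over all regions. The CAST-limited regions lay in 5 of the 10 windows, those of Egfr, Fgfr4, Klb, Lifr (2 regions) and Thrb. Of all protein-coding genes 7.62% had such a region, in windows that held a median of 2 regions against 9.5 for the receptors. Scaled to the depth and enrichment of the B6 lists, all 6 would have stood above the weakest B6 peak in both sexes, and the 3 B6-limited regions likewise above the weakest CAST peak. The same was so for 1857 of the 1862 CAST-limited and all 1708 B6-limited regions of the genome. All 6 and all 3 were also found at matched depth, and with a −log10 q of at least 15.7 required in every list 1 and 0 remained. With lists of equal size all 6 and 2 of the 3 stayed limited to their strain, and likewise with an overlap of 50%. With lists of equal size 10 regions were limited to CAST (11.6% of 86, beside 5.72% of all regions) and 5 to B6 (5.81%, beside 5.64%). B6 reads had been mapped to the reference and CAST reads to a reference carrying CAST variants, and the part of this in the strain-limited regions was not tested. None of the 125 regions aligned elsewhere in the assembly over 50% or more of its length.

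By its mean over the lists, the strongest CAST-limited site nearest to a receptor's own TSS was in an intron of Thrb at chr14:18734775-18735509, 241.6 kb from the TSS. Its fold enrichment was 4.26 (3.64 to 4.95) in CAST males and 4.77 (3.74 to 5.99) in CAST females, with −log10 q of 50.1 and 24.3 and no peak in either B6 list. Near it, at 239.1 kb, was a Thrb region found in all 4 lists with the fold enrichments 10.8 in B6 males, 6.67 in B6 females, 7.52 in CAST males and 6.28 in CAST females. The next was in an intron of Fgfr4 at chr13:55255841-55256399, 2.15 kb from the TSS, with 4.41 (3.797 to 5.085) in CAST males and 3.57 (2.74 to 4.56) in CAST females. The promoter of Fgfr4 itself was open in all lists. Lifr had 2 intronic sites of this kind, at 6.61 kb with 3.14 in CAST males and 2.73 in CAST females, and at 21.4 kb with 3.45 and 2.84. In Egfr an intronic site at 148.8 kb had 3.56 in CAST males and 3.24 in CAST females. The sixth, beyond the 3′ end of Klb and nearest to Lias, had 5.19 and 3.81. The relative male to female ratios of the 6 in CAST ran from 0.743 to 1.13, with counting intervals that all included 1. The 300 bases (mm9, plus strand) around the strongest summit are given for the Thrb, Fgfr4 and second Lifr sites, as examples of the sites with a peak in the CAST lists only. The same stretches of the Egfr site and the first Lifr site held none of the 11 motifs searched for, and that of the Klb site held 4 of them. The letters are the B6 reference, and the CAST alleles were not used here. Capitals mark the C/EBP motif TTGCNNAA and the nuclear receptor core motif AGGTCA in Thrb, the NFY motif CCAAT in Fgfr4, and AGGTCA and CCAAT in Lifr, on either strand.
Thrb chr14:18734962-18735261: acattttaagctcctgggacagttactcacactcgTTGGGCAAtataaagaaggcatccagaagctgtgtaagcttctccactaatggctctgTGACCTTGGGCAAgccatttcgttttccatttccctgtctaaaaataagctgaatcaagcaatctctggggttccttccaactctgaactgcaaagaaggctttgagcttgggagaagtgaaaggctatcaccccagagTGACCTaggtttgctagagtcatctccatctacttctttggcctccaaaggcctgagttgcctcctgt
Fgfr4 chr13:55256001-55256300: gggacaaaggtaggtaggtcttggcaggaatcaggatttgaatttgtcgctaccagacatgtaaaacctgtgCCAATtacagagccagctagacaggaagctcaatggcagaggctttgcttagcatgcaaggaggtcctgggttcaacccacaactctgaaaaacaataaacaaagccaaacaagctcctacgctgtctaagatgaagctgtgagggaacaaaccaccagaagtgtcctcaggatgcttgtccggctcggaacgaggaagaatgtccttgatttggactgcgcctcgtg
Lifr chr15:7100792-7101091: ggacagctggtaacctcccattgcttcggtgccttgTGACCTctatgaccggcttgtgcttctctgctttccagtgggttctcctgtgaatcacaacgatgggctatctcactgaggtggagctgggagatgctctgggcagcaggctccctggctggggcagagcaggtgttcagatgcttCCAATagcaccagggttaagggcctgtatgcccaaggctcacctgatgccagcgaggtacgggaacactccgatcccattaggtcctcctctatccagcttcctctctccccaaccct

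The B6-limited regions were 2 intronic sites of Thrb and 1 of Egfr. The Thrb site at chr14:18749474-18750284 had a fold enrichment of 3.07 (2.39 to 3.87) in B6 males and 2.68 (1.98 to 3.54) in B6 females, and the site at chr14:18717357-18718332 had 3.24 and 3.01. The Egfr site at 17.9 kb, nearest to Gm17664, had 2.09 in B6 males and 2.58 in B6 females. All 3 were weaker than the Thrb site limited to CAST. The Thrb site 256.5 kb into the gene is shown because it had a peak in the B6 lists only and was the only one of the 125 regions to hold the HNF4 motif CAAAGTCCA. The motif here stands reversed and runs into the motifs of HNF6 (ATCAAT) and NFY (CCAAT).
Thrb chr14:18749786-18750085: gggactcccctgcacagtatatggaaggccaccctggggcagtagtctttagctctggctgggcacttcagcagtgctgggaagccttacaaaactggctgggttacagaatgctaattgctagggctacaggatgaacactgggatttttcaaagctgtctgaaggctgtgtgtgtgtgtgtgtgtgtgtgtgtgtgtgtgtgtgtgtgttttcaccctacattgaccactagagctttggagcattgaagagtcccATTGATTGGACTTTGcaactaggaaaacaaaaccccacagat

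In 3 of the 49 shared regions (6.12%) the CAST lists exceeded the B6 lists by more than 1.5 times in both sexes, and in none did B6 exceed CAST. Over all shared regions the shares were 2.15% and 0.868%. The difference was largest in males at an intronic Thrb site and in females at a Met site. The Thrb site lay at chr14:18561522-18561964, 68.3 kb from the TSS. Its fold enrichment was 7.27 (6.35 to 8.29) in B6 males, 4.69 (3.78 to 5.76) in B6 females, 13.8 (12.5 to 15.1) in CAST males and 9.44 (7.87 to 11.2) in CAST females. Within each sex the strain intervals did not overlap, and the male CAST value was the highest of any receptor region in any list. The relative B6 to CAST ratio was 0.559 (0.473 to 0.656) in males and 0.590 (0.443 to 0.778) in females. At the Lepr intronic site chr4:101414151-101415156 the fold enrichment was 4.73 in B6 males, 3.62 in B6 females, 7.62 in CAST males and 7.40 in CAST females, and the relative ratios were 0.658 (0.507 to 0.843) and 0.581 (0.420 to 0.785). At the Met site, 77.8 kb into the gene (chr6:17490946-17492129) it was 3.83, 2.06, 6.18 and 5.62 in the same order, and the relative ratios were 0.657 (0.495 to 0.862) and 0.436 (0.273 to 0.667). The female B6 peak of this Met site was weak, with a −log10 q of 2.18 and the lowest fold enrichment of the 49 shared regions in that list. In B6 males the value was the higher of 2 peaks joined into the region. The upper bounds lay above 0.667, the limit of 1.5 times, in males for Met and Lepr and in females for Thrb and Lepr, so there the counting intervals reached back across the limit. No region passed a limit of 2 times in both sexes.

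These 3 sites are shown because they were open in both strains and higher in CAST. In the 300 bases around their strongest summits Thrb held AGGTCA and the C/EBP motif, Lepr held the STAT motif TTCNNNGAA and AGGTCA, and Met held none of the 11 motifs.
Thrb chr14:18561605-18561904: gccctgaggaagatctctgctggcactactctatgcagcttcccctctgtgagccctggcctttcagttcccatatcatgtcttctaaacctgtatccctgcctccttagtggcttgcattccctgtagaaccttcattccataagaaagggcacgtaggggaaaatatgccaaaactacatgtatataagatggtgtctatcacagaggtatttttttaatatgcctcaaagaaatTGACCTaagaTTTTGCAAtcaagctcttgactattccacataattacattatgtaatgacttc
Lepr chr4:101414427-101414726: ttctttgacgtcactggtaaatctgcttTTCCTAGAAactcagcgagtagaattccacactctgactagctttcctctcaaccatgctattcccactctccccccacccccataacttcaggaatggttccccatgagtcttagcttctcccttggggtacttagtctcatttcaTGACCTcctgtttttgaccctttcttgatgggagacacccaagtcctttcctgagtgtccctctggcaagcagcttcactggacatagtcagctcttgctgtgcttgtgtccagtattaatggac
Met chr6:17491483-17491782: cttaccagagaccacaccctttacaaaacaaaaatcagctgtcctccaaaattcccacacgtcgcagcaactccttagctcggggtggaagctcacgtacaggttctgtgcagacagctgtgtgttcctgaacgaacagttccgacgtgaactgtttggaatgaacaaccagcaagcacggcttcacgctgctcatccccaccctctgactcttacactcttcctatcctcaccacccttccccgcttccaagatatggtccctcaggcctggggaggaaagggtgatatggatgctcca

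**Figure D4:**
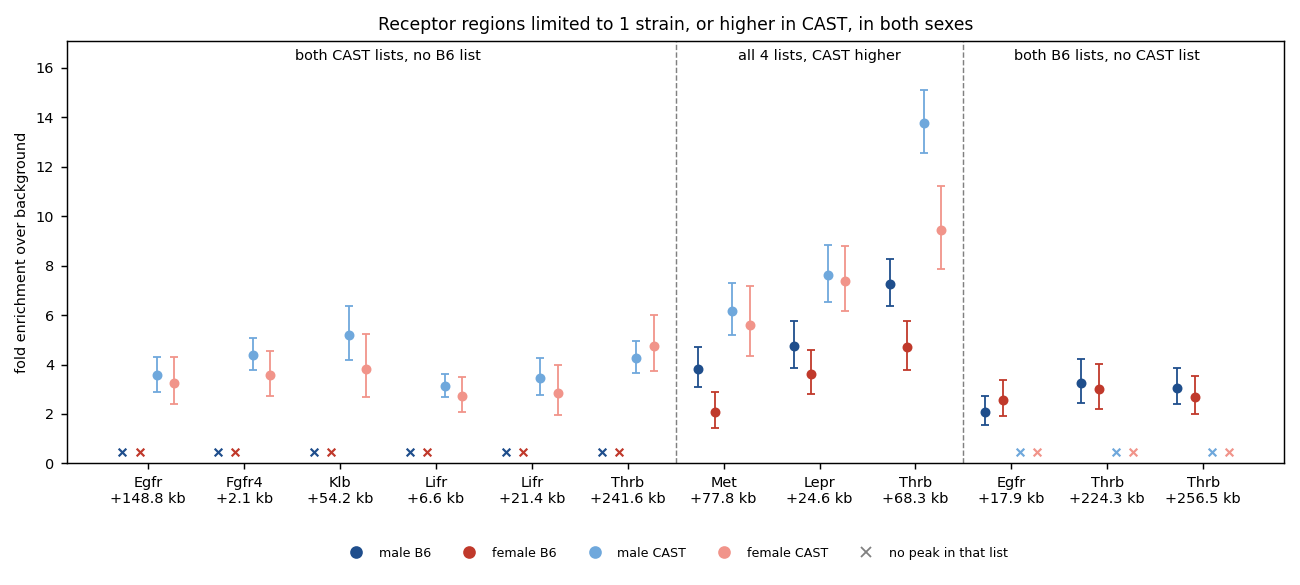
Fold enrichment over background (y axis, linear) at the 12 receptor regions limited to 1 strain or higher in CAST in both sexes, labelled by gene and distance from its first start site, with exact Poisson 95% intervals and crosses where a list had no peak. The Thrb site at +68.3 kb has the highest value of all, 13.8 in CAST males.

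A further Met site at 48.2 kb (chr6:17461653-17462298) was singled out after its values were seen. Found in 3 lists, it was neither limited to 1 strain nor among the shared regions, and it counted as male only in B6. Its fold enrichment was 1.98 (1.39 to 2.73) in B6 males, 4.83 (3.92 to 5.90) in CAST males and 3.89 (2.82 to 5.24) in CAST females, and female B6 had no peak. The relative B6 to CAST ratio in males was 0.433 (0.280 to 0.633). In the other direction, the Thrb site at 239.1 kb had a relative ratio of 1.52 (1.31 to 1.77) in males and 1.26 (0.976 to 1.65) in females, past the limit in 1 sex only.

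**Figure D5:**
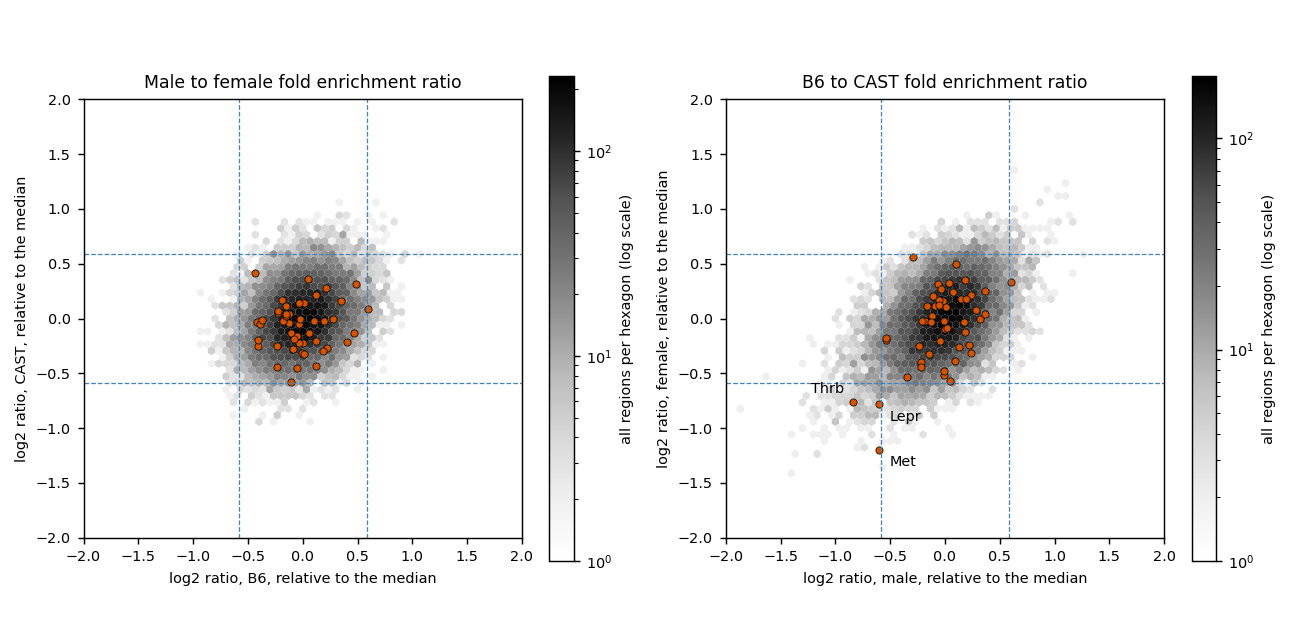
Log2 fold enrichment ratios relative to the median of all shared regions, male to female (left, B6 on x and CAST on y) and B6 to CAST (right, males on x and females on y). Orange points are the 49 shared receptor regions, grey hexagons all 18309 shared regions (log colour scale), and dashed lines the limit of 1.5 times. In the left panel no receptor region lies beyond the limit on both axes, and in the right panel a region each of Thrb, Lepr and Met does, on the CAST side.

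Sequence content was read in the 300 bases around the strongest summit of each region, on both strands, for 11 motifs. The shares were not matched for distance from a TSS. Over 2.5 kb from a TSS lay 98 of the 125 receptor regions and 34551 of all 51482 regions. Whether any motif differed beyond this was not tested. The forkhead motif TGTTTAC was in 15 of 125 receptor regions (12.0%, Wilson 95% interval 7.41 to 18.9) and in 6.59% of all regions, and 14 of the 15 lay over 2.5 kb from a TSS. The STAT motif TTCNNNGAA was in 15.2% (9.95 to 22.5) and in 10.2% of all regions, with 5 at Thrb, 3 each at Egfr, Klb and Gcgr, 2 at Fgfr4 and 1 each at Met, Lifr and Lepr. The nuclear receptor core motif AGGTCA was in 30.4% and 26.0%, with 10 of the 29 Thrb regions and 7 of the 18 Egfr regions among them. The C/EBP motif was in 18.4% and 17.2%, and 11 of its 23 receptor regions were at Thrb. HNF6 (ATCAAT) was in 16% and 13.03%, the glucocorticoid receptor core motif AGAACA in 22.4% and 22.4%, CCAAT in 35.2% and 35.5%, HNF1 (GTTAATNA) in 3.2% and 4.47%, and HNF4 (CAAAGTCCA) in 0.8% and 1.67%. The CTCF core AGGGGGC was in 2.4% and 6.50%, and the SP motif GGGCGG in 15.2% and 19.97%, of which 13 of 19 lay within 2.5 kb of a TSS. The median GC content was 48.0% in receptor regions and 49.0% in all regions.

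The other genes of these pathways were read in the same manner, by whether a region over a TSS was found in all 4 lists. This was so for 5 of 16 ligand genes, 5 of 13 co-receptor and related receptor genes, 12 of 16 signal transducer genes, and 7 of 9 feedback and target genes, beside 40.6% of all protein-coding genes. The open ligand promoters were Egf, Tgfa, Hbegf, Btc and Fgf1. Of the other ligands of Egfr family receptors, Areg and the neuregulin genes Nrg1 and Nrg2 had no promoter region in any list. Hgf, the ligand of Met, had a promoter region in 2 lists, and the promoters of Fgf15, Fgf21, Il6, Lif, Osm, Gcg and Lep had none in any list. Among related receptors Fgfr2, Fgfr3, Thra, Rxra and Insr were open, and Erbb2, Erbb4, Mst1r, Kl, Il6st and Glp1r had no region over a TSS in any list. For Il6st, which encodes the signalling subunit gp130 shared by Lifr and Il6ra complexes, 7 regions lay in the window and 2 of them were in all 4 lists. Grb2, Shc1, Sos1, Jak1, Jak2 and Stat3 were among the open transducers. Cyp7a1, the rate-limiting enzyme of bile acid synthesis, Pck1, a gluconeogenic enzyme, and Thrsp, a thyroid hormone responsive gene, were open, and Dio1, a deiodinase, had a promoter region in 1 list. In the windows of these 54 genes 12 of 394 regions were limited to CAST, 10 to B6, 48 to both male lists and none to both female lists. The shares over all regions were 3.62%, 3.32%, 9.38% and 0.0622%. Fgfr2 alone held 111 of the 394 regions, with 5 of the 12, 4 of the 10 and 16 of the 48.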

How the data were processed

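DNase-seq was performed on purified liver nuclei, and 16 libraries were grouped by their titles. Per the study's methods, reads were aligned by the authors with Bowtie2 and unique alignments were kept, with B6 mapped to mm9 and CAST to mm9 carrying CAST variants, after which coordinates were converted back. The authors left out 1 library per group for quality, pooled the 4 others, called peaks with MACS2, and removed blacklisted peaks and peaks made of duplicate reads. The deposited lists give the fold enrichment, a ratio of summit pileup to background, the −log10 p-value and −log10 q-value, and the summit position of each peak. The receptor genes, gene lists and comparisons were chosen with earlier results of these data known.

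Peaks overlapping by 1 bp were joined with Python (version 3.11.15), and the highest peak of each list stood for a region. Coordinates are mm9, counted from 1, and genes came from GENCODE for that build. All 80 genes of the fixed lists were found, Adgre1 by its older symbol. Summit pileup and background were recovered from fold enrichment and p-value, and the pileup lay within 0.02 of a whole number for 99.9% or more of the peaks of each list, after rounding. The lists give no other depth. Recovery, joining and motif search were tested on simulated data. Copies were sought with minimap2 (version 2.31-r1302, asm20 setting), which skips the most frequent repeats. With 1 list per group no test was run. Regions were named by these rules: those over a TSS, the strongest whose nearest TSS was the receptor's, those limited to 1 sex or strain, and those past 1.5 times in both strains or both sexes. The alternatives were an overlap of 50%, a −log10 q of at least 15.7, lists of 24888 peaks, matched depth, joining within 500 bp, windows of 5 and 50 kb, own regions only, and other ratios and limits. Leaving out female CAST was added after the data were seen. The sequence of the strongest Thrb region is not reported here.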

Additional observations from a re-analysis of the deposited data

Results flagged for a closer look

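A region at 167 kb from the Egfr TSS, beyond the 3′ end of the gene, was found in a different sex in each strain, which flagged it. It had a fold enrichment of 1.92 in female B6 and 1.85 in male CAST, with no peak in male B6 or female CAST. Both values were among the weakest of the receptor regions, and the difference between the strains was not tested. Of all 51482 regions 419 had this pattern. No shared receptor region had sex ratios past 1.5 times in opposite directions in B6 and CAST, or strain ratios in opposite directions in males and females.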

How the results depend on the processing

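No paired analysis was possible because the replicates were pooled before peaks were called. Leaving out single replicates could not be done either. An overlap of 50% gave 28.4% of receptor regions in all 4 lists, 14 regions female only in B6 and 17 female only in CAST. The stricter threshold left 61 regions, of which 23 were male only in B6, 0 female only in B6, 0 female only in CAST, 0 limited to B6 and 1 limited to CAST. Lists of equal size gave 52.3% in all 4 lists, 11 male only in B6, 4 male only and 10 female only in CAST, 5 limited to B6 and 10 limited to CAST. Own regions only left 1 female-only region in CAST, and without the female CAST list 22 regions were in the male CAST list and no B6 list. With ratios of −log10 q in place of fold enrichment, 3 regions passed 1.5 times between the sexes (all higher in males) and 6 between the strains (4 higher in CAST, 2 in B6). A limit of 2 times left 0 between the strains. Shares over all regions are not given for the stricter threshold, the lists without female CAST or the ratios of −log10 q. Nor are they given for the shares in all 4 lists under the other settings. Whether these shifts were particular to the receptor regions was not tested. Matched depth and joining within 500 bp kept the share and the 7 counts of regions within 1.5 times. The fold counts were 0 and 3 under the ratio as deposited, the 50% overlap and own regions only. The precision of each value is limited by its list's depth.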
